A study of Mus musculus with 8 samples.

Results

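Voltage-gated sodium channels open when a neuron depolarises and carry the inward current that starts and propagates the action potential. The 8 genes described here were chosen by symbol, out of 54232 genes in the feature tables, and all 8 were found. Scn1a, Scn2a, Scn3a, Scn8a and Scn9a encode alpha subunits (Nav1.1, Nav1.2, Nav1.3, Nav1.6 and Nav1.7), each of which forms a whole pore with its voltage sensors. Scn2b, Scn3b and Scn4b encode beta subunits, single-pass membrane proteins with an immunoglobulin-like domain that bind an alpha subunit and alter its gating and its placement in the membrane. As background, Nav1.1 is best known from fast-spiking interneurons and its loss causes Dravet epilepsy. Nav1.2 and Nav1.6 are the main channels of the axon initial segment of excitatory neurons, Nav1.3 is known for its high level before birth, and Nav1.7 is best known from sensory neurons. Precursors of oligodendrocytes are the glial cells in which sodium currents are well described.

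The levels came from single-nucleus RNA sequencing of perilesional forebrain, dissected as a 2 mm cube and frozen, from male Swiss Webster mice 10 weeks old. There were 4 groups by surgery: control, BCAS, TBI and BCAS+TBI, with 2 libraries each that the labels call biological replicates. TBI is traumatic brain injury. BCAS is given only by its abbreviation, and the series title ties the study to cerebral hypoperfusion. The labels describe the controls only as control and carry no time after surgery. Of 53390 deposited barcodes 45560 were kept, and 36565 nuclei in 26 types (16 of neurons, with 26238 nuclei, and 10 of other cells, with 10327) were analysed. Types are called "-like" because they were named here from marker genes, with 8485 nuclei (18.6%) left unnamed.

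Total UMIs (unique molecular identifiers, a count of captured RNA molecules) per library ranged from 28118725 to 56135192. The libraries fell into 2 sets of 4, each with 1 library of every group. Set 1 (control 1, BCAS 1, TBI 1 and BCAS+TBI 2) held 28118725 to 33363564 UMIs with 1.204% to 2.77% mitochondrial UMIs. Set 2 held 42651388 to 56135192 UMIs with 0.511% to 1.04%. The labels name no batch, and the sets were drawn from the totals. Any of the 28 pairs of libraries shared 5 to 20 barcodes. The oligodendrocyte-, astrocyte-, microglia- and peptidergic neuron-like types held all 6 of their 6 markers at the highest level of any type, the Pvalb interneuron-like type 4 of 6 and the thalamic-like type 3 of 6. The cortical layer names are weaker: the layer 5-like type held 2 of 5, the mid-layer-like type 1 of 5 and the upper-layer-like type 0 of 5.

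The 8 genes lie on 3 chromosomes of GRCm38 (GENCODE M21 annotation). Scn3a (chr2:65457118-65567627, minus strand), Scn2a (chr2:65620771-65767447, plus), Scn1a (chr2:66270778-66440840, minus) and Scn9a (chr2:66480080-66634962, minus) stand in 1 cluster. Scn8a lies at chr15:100869858-101045938 (plus). The beta subunit genes lie on chromosome 9, Scn3b at chr9:40269217-40291618, Scn2b at chr9:45117782-45130070 and Scn4b at chr9:45138395-45154152, all on the plus strand. The alpha genes span 110.5 to 176.1 kb and the beta genes 12.3 to 22.4 kb, so levels are compared here for 1 gene across types and not between genes. An antisense gene, Gm13629 (chr2:66440880-66546026), starts 40 bases upstream of the Scn1a start on the opposite strand and runs into Scn9a.

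The promoters of Scn1a and Scn9a are shown because the mean level of both neighbours over the libraries was highest in Pvalb interneuron-like nuclei (for Scn9a in 3 of the 8 libraries taken singly) and because Gm13629 begins beside the first. Each is the 250 bases before the gene's RefSeq start on GRCm38.p6, 5′ to 3′ on the minus strand (Scn1a chr2:66440838-66441087, Scn9a chr2:66634963-66635212). Capitals mark the 1 match to any of 4 short motifs searched on both strands: the TATA box TATAAA, the box CCAAT, the E-box CACGTG and the GC box GGGCGG.
Scn1a: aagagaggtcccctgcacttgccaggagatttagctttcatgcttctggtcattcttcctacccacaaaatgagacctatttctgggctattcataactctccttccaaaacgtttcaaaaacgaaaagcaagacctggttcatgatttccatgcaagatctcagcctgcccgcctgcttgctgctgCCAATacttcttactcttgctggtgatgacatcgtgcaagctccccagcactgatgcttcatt
Scn9a: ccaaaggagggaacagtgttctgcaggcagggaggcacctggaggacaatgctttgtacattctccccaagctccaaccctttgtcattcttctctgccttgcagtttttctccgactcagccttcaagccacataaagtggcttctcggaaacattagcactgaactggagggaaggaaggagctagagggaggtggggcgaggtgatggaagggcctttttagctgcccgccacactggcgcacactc
The Scn1a window had 46.8% GC and 4 CG pairs, and the Scn9a window 54.4% and 5. The median of all 32817 such windows was 52.4% and 6. CCAAT was found in the windows of Scn1a and Scn4b, against 33.8% of all windows. TATAAA was found in 1 of the Scn2a windows, against 12.4% of all. The E-box (6.02% of all windows) and the GC box (32.7%) were in none of the 8 windows of the 6 genes that had one. Scn3a and Scn3b had no window in the table. A first Scn8a window (68% GC, 30 CG pairs) and that of Scn4b (66%, 23) were the richest in CG pairs.

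Levels are given as CPM, the UMIs of a gene per 1000000 UMIs of the same type and library, as mean ± SD over the 8 libraries. They describe the types, with no test between them.

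Scn1a was highest in Pvalb interneuron-like nuclei, at 692 ± 38 CPM (643.6 to 742). No library of the next type reached that range: layer 5-like nuclei held 545 ± 59 CPM (452 to 638). Neighbours below it overlapped: Lamp5 interneuron-like nuclei held 501 ± 70, Sst interneuron-like 473 ± 40, thalamic excitatory-like 457 ± 12 and mid-layer-like 452 ± 60 CPM. The order went on through other inhibitory (426), Vip interneuron-like (379), upper-layer-like (355), Drd2 and Drd1 striatal projection neuron-like (328 and 304), layer 6 corticothalamic-like (303), peptidergic neuron-like (297) and other excitatory nuclei (277 CPM). Scn1a was lowest among neurons in dentate granule neuron-like (169 ± 32) and layer 6b or claustral-like nuclei (152 ± 31). The highest of the 16 neuron types was 4.54 times the lowest.

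Scn2a was spread more evenly, with its highest neuron type at 1.85 times its lowest. Layer 6 corticothalamic-like nuclei held 567 ± 47 CPM, Vip interneuron-like 545 ± 30, Lamp5 interneuron-like 519 ± 63 and Sst interneuron-like 493 ± 45, all with overlapping ranges. The levels then fell in small steps, through mid-layer-like (490), peptidergic (489), layer 6b or claustral-like (477), upper-layer-like (474) and other inhibitory nuclei (460). Other excitatory (451), Drd1-like (439.6), dentate (430.5), thalamic (429) and Drd2-like nuclei (419) followed, down to layer 5-like nuclei (387 ± 25 CPM). The Pvalb interneuron-like nuclei, highest for Scn1a, were the lowest neurons for Scn2a at 306 ± 25 CPM (269 to 346).

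Scn3a was highest in dentate granule neuron-like nuclei at 244 ± 37 CPM (165 to 294). Other inhibitory (220.5 ± 15.3), peptidergic (204 ± 14), Drd1-like (199.9 ± 22.7) and Drd2-like nuclei (197 ± 37) followed with overlapping ranges. The middle of the order held Vip interneuron-like (156.5), thalamic (141), upper-layer-like (126), other excitatory (125.5), mid-layer-like (125) and layer 6 corticothalamic-like nuclei (122). Then came layer 6b or claustral-like (108), Sst interneuron-like (105) and Lamp5 interneuron-like nuclei (98.3 CPM). Layer 5-like nuclei (62.6 ± 10.7) and Pvalb interneuron-like nuclei (50.1 ± 11.6) were the lowest neurons, so the types highest for Scn1a were lowest for Scn3a. The level in Pvalb interneuron-like nuclei was 33.9 CPM when inhibitory nuclei were split more finely.

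Scn8a, like Scn2a, varied little across neurons, with a ratio of 1.80 between the highest and lowest type. Pvalb interneuron-like (449 ± 64), layer 6 corticothalamic-like (441 ± 55), layer 5-like (439 ± 57), dentate (435 ± 75), upper-layer-like (427 ± 56), mid-layer-like (422 ± 61) and other excitatory nuclei (404 ± 42 CPM) overlapped. Below them came Drd1-like (366), thalamic (346), Drd2-like (323), Sst interneuron-like (321), layer 6b or claustral-like (313), Lamp5 interneuron-like (289) and Vip interneuron-like nuclei (270.3). Other inhibitory (252 ± 35) and peptidergic nuclei (249 ± 28 CPM) were the lowest.

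Scn9a had the widest spread of the alpha subunits, 12.9-fold between neuron types. Pvalb interneuron-like (197 ± 108 CPM, 79.8 to 323), peptidergic (185.8 ± 29.96, 145 to 232) and thalamic nuclei (174 ± 77, 91.8 to 305) were highest and overlapped. Other inhibitory (114), mid-layer-like (105), Vip interneuron-like (100.1), Sst interneuron-like (86.4), layer 5-like (68.3) and layer 6b or claustral-like nuclei (55.4) were intermediate. Drd2-like (46.9), other excitatory (43.5), Drd1-like (35.8), dentate (34.4) and upper-layer-like nuclei (33.7) were lower. Layer 6 corticothalamic-like (19.8 ± 11.7) and Lamp5 interneuron-like nuclei (15.2 ± 12.9 CPM) were the lowest. The median CV over libraries within a neuron type was 49.7%, against 7.61% for Scn2a and 13.5% for Scn8a.

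Among the beta subunits, Scn2b, whose product is tied to the alpha subunit by a disulfide bond, was the most even. It ranged from 70.3 ± 10.9 CPM in Sst interneuron-like nuclei to 40.7 ± 7.5 in upper-layer-like nuclei, 1.73-fold, and every pair of neighbours overlapped. The 5 types highest for Scn2b were the 4 named interneuron types, Sst-, Pvalb- (60.9), Vip- (56.5) and Lamp5-like (56.1 CPM), and other inhibitory nuclei (58.4).

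Scn3b, whose product binds without such a bond, was highest in dentate granule neuron-like nuclei at 155 ± 21 CPM (117 to 184). Drd2-like nuclei followed at 93.6 ± 23.3 and overlapped them (53.3 to 128), and other excitatory nuclei held 72.7 ± 7.9. Layer 5-like (19.5 ± 4.5) and Pvalb interneuron-like nuclei (17.8 ± 7.0 CPM) were lowest for Scn3b, the same 2 neuron types that were lowest for Scn3a. Both low Scn3b levels moved with the clustering: the Pvalb interneuron-like level was 8.16 CPM with a finer split of inhibitory nuclei and 10.2 at a coarser overall resolution, and the layer 5-like level was 32.2 without centring within libraries.

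Scn4b, known for its part in resurgent sodium current, was highest in the 2 striatal types. Drd1-like nuclei held 116 ± 29 CPM (69.4 to 153) and Drd2-like nuclei 87.2 ± 35.8 (41.2 to 137), with overlapping ranges. With a finer split of inhibitory nuclei the order turned, at 123 CPM in Drd1-like and 148 in Drd2-like nuclei. No other neuron type passed 23.1 ± 6.2 CPM, the level in layer 5-like nuclei. Layer 6 corticothalamic-like (16.2) and thalamic nuclei (12.9) came next, and the Lamp5 interneuron-like nuclei held 0 UMIs of Scn4b. The gene was thinly sampled, with 1907 UMIs in all named nuclei, against 8609 for Scn2b, 10456 for Scn3b and 83002 for Scn2a.

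**Figure D1:**
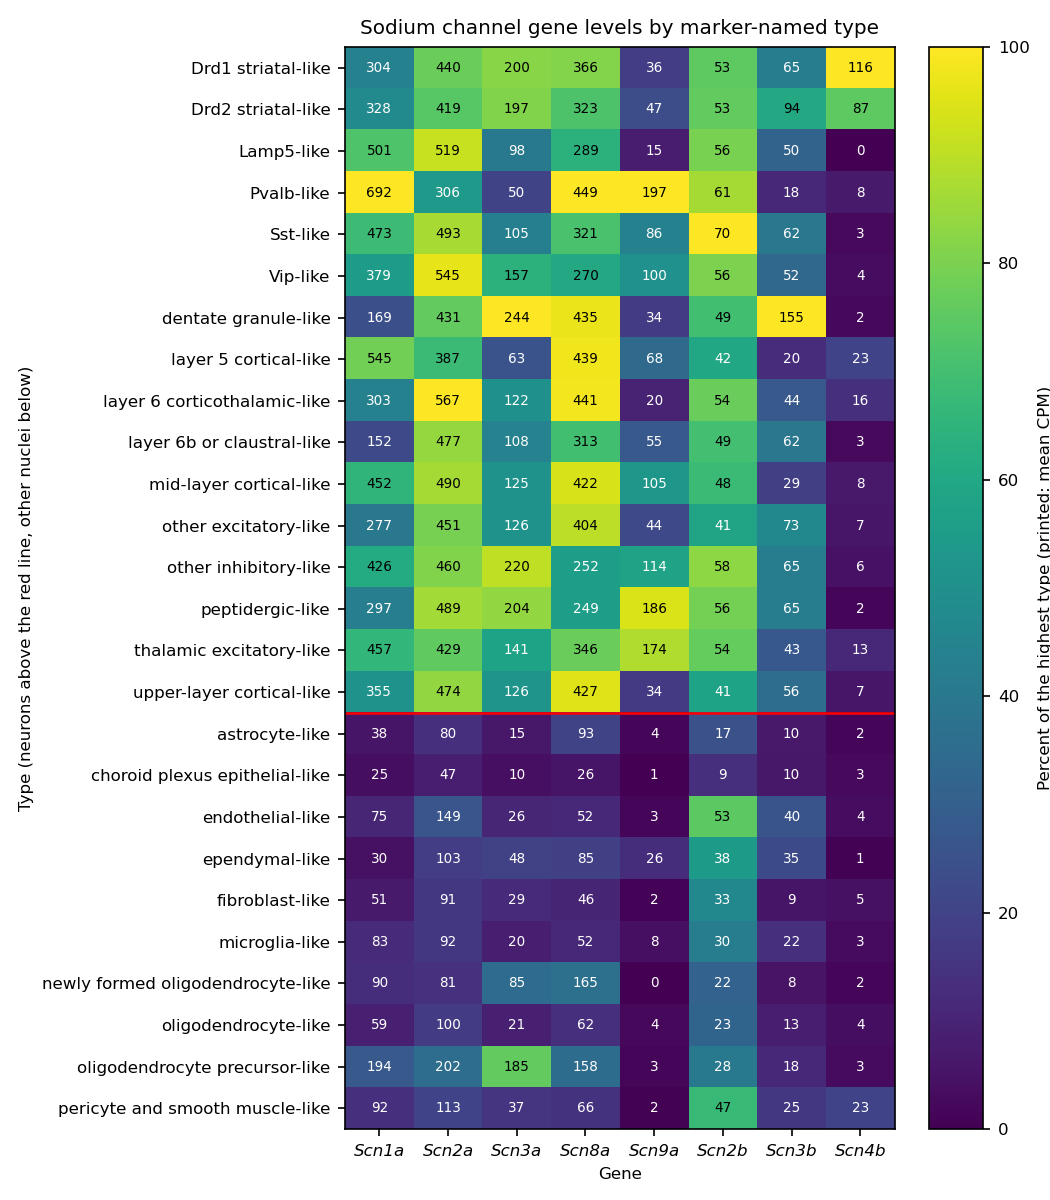
Mean level of each gene (columns) in each of the 26 types (rows) over 8 libraries. Colour is the percent of that gene's highest type and the printed number is the mean CPM. Scn1a peaks in Pvalb interneuron-like nuclei (692 CPM), Scn3a and Scn3b in dentate granule neuron-like nuclei (244 and 155 CPM), and Scn4b in the 2 striatal types (116 and 87.2 CPM).

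Outside neurons, the oligodendrocyte precursor-like nuclei stood highest for Scn1a (194 ± 39 CPM), Scn2a (202 ± 25) and Scn3a (185 ± 43). For Scn3a this was 147% of the level in upper-layer-like neurons. For Scn1a it was 54.7%, for Scn2a 42.7% and for Scn8a (158 ± 27 CPM) 37.1%. All 8 libraries had these 4 genes in the precursors. Scn1a ran from 136 CPM in control 1 to 248 in BCAS+TBI 1, and Scn3a from 117 in control 1 to 239 in BCAS+TBI 1. Scn2a ran from 173 in control 1 to 249 in TBI 2, and Scn8a from 113 in BCAS+TBI 2 to 189 in control 2.

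Free neuronal RNA can enter any droplet, so an 8-gene list of other neuron transcripts was summed in the same nuclei. In the precursors it stood at a median of 7.35% of its upper-layer-like level over libraries (5.48% to 13.6%), with none of its genes at 0 UMIs, and Slc17a7, the vesicular glutamate transporter of cortical excitatory neurons, at 14.0%. The shares of Scn1a, Scn2a, Scn3a and Scn8a were all above that range and that of Scn9a (8.68%) was inside it. Those of Scn2b (69.8%), Scn4b (50.7%) and Scn3b (32.3%) were above it as well. A low upper-layer-like level raises such a percent. It was 6.84 CPM for Scn4b, which only 6 of 1020 precursor-like nuclei held unthinned. After thinning each nucleus to 1000 UMIs, 162 of 953 precursor-like nuclei held a UMI of Scn1a (Wilson 95% interval 14.7% to 19.5%), 18.6% of Scn2a, 15.8% of Scn3a (13.7% to 18.3%) and 14.8% of Scn8a. The share with Slc17a7 was 3.78%, and 67 nuclei were too shallow. Unthinned, at a median of 2212.5 UMIs, the shares were 32.7%, 35.98%, 32.4% and 30.1%. Intervals cover counting error only. In astrocyte-like nuclei thinned alike, from a median of 1864 UMIs, 1.66% held Scn3a, 3.69% Scn1a, 7.37% Scn2a and 8.32% Scn8a. The share with Slc17a7 there was 6.05%, below those of Scn2a and Scn8a.

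Newly formed oligodendrocyte-like nuclei, only 126 in all, kept Scn8a at 165 ± 103 CPM and Scn3a at 85.2 ± 33.6, or 38.6% and 67.5% of the upper-layer-like levels, where the neuron list stood at 5.24% (1.91% to 10.9%). Thinned to 1000 UMIs, 20.8% of 125 such nuclei held Scn8a (14.6% to 28.7%). In mature oligodendrocyte-like nuclei the same genes stood at 14.5% and 16.8%, within the list's 7.78% to 17.9%, while Scn2a (100.5 ± 35.6 CPM) stood at 21.2%, below Slc17a7 at 27.0%. In astrocyte-like nuclei Scn8a (92.7 ± 19.8 CPM) stood at 21.7% and Scn2a at 16.8%, above the list's 6.93% to 13.5%, though Slc17a7 was at 19.9%. In endothelial-like nuclei Scn2a (149 ± 54 CPM from 141 UMIs) stood at 31.5%, beside 15.2% to 26.0% for the list and 32.2% for Slc17a7. Beta subunits gave higher percents in vascular nuclei: Scn2b stood at 129% in endothelial-like and 116% in pericyte and smooth muscle-like nuclei. Scn4b stood at 340.5% in the latter, a level of only 23.3 CPM. For these glial and vascular values the part of neuronal RNA was not tested.

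**Figure D2:**
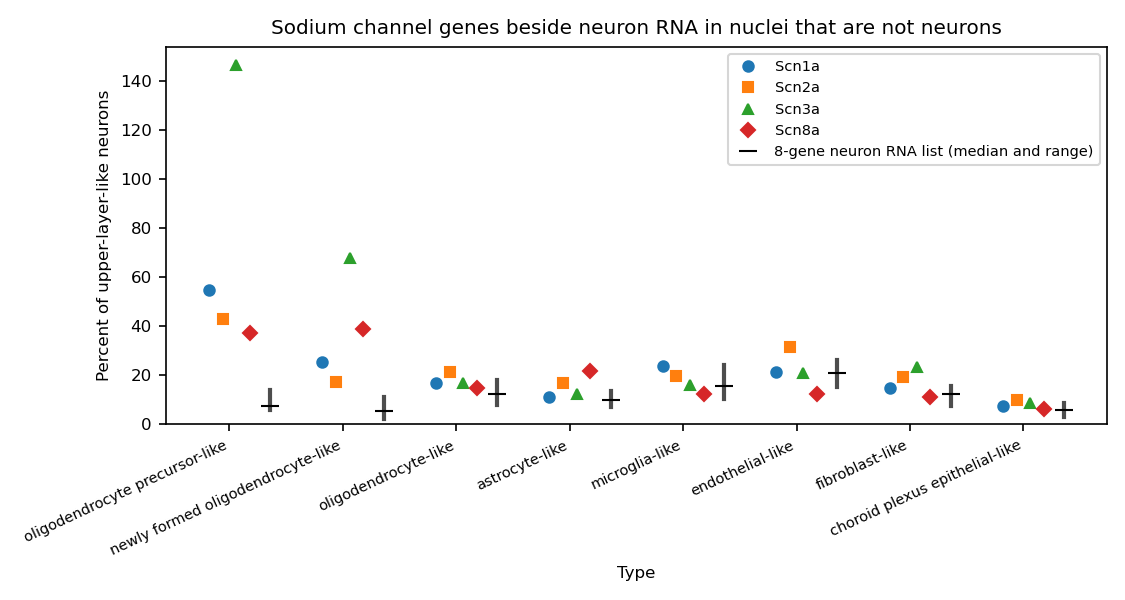
Scn1a, Scn2a, Scn3a and Scn8a in types other than neurons, each as a percent of its level in upper-layer-like neurons. Beside them stand the median and range over libraries of an 8-gene list of other neuron transcripts. Ependymal-like and pericyte and smooth muscle-like nuclei are not drawn. In oligodendrocyte precursor-like nuclei the 4 genes stand at 37.1% to 147%, above the list's 5.48% to 13.6%.

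The comparisons between surgeries asked whether injury, BCAS or their combination moved these genes. None of the 8 genes passed the test in any of the 8 comparisons. UMI sums per type and library were compared by edgeR's quasi-likelihood test with the library set as a term and Benjamini-Hochberg adjustment over all 196164 pairs of a gene and a type. Calling needed an adjusted p under 0.05. Of 208 pairs of a gene here and a type, 133 had enough counts in a type with at least 20 nuclei per library, 111 of them in neurons. Nothing tied replicates to separate animals beyond the word biological, so p-values measure the spread between these libraries.

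With edgeR, 0 of 133 pairs were called for TBI against control, where 0.0112% of all pairs were called. BCAS against control also gave 0, beside 0.00612% of all pairs. The combined surgery gave 0 against control (0.00867% of all pairs called), 0 against TBI (0.0143%) and 0 against BCAS (0.0051%). The interaction of both surgeries gave 0 (0.0112%). The average effect of TBI, taken over mice without and with BCAS, gave 0 (0.0117%), and the average effect of BCAS gave 0 (0.00867%). Comparisons that share a group are not independent of each other. In the same order, 8, 8, 1, 9, 9, 14, 4 and 4 of the 133 pairs had an unadjusted p under 0.05 by edgeR. Over all 196164 pairs it was 7844, 8211, 7778, 8186, 10188, 9451, 8794 and 7205. Of the 14 for the interaction, 12 were negative and 2 positive. DESeq2 called 0 pairs in each comparison, with 1, 0, 0, 1, 1, 1, 0 and 1 at that unadjusted level. The median log2 difference over the 133 pairs was -0.02 for the average effect of TBI, 0.03 for that of BCAS and -0.09 for the interaction, against 0.00, 0.00 and 0.01 over all pairs.

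The intervals show what these 8 libraries could resolve in neurons. For the average effect of TBI, 105 of 111 neuron pairs had a 95% interval inside a 2-fold change either way, and for the average effect of BCAS 109 of 111. For the interaction it was 81 of 111, with a median half-width of 0.54 on the log2 scale against 0.27 for each average. Over 15 neuron types, Scn2a differed by -0.13 to 0.04 for the average effect of TBI and its intervals reached from -0.34 to 0.32. Scn8a differed by -0.12 to 0.06, and its intervals reached from -0.43 to 0.34. Scn1a differed by -0.16 to 0.09 with intervals from -0.48 to 0.36. For Scn4b, tested in 7 neuron types, they reached from -1.09 to 1.11.

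Each gene is given here in its highest type, and Scn4b also in Drd2-like nuclei. Scn3a in upper-layer-like neurons and Scn9a in peptidergic and thalamic nuclei were added because they had the smallest p-value of these genes in a comparison. Scn1a in Pvalb interneuron-like nuclei stood at 648 and 742 CPM in the control libraries 1 and 2, 694 and 726 in BCAS, 670 and 679.5 in TBI and 729 and 643.6 in BCAS+TBI. All groups overlapped. The average effect of TBI on the log2 scale was -0.04 (95% interval -0.23 to 0.15) and for the average effect of BCAS 0.03 (-0.16 to 0.22).

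Scn2a in layer 6 corticothalamic-like nuclei stood at 552 and 594 CPM in control, 669 and 551 in BCAS, 546 and 536 in TBI and 564 and 521 in BCAS+TBI. The TBI libraries lay below both control libraries and 1 BCAS+TBI library lay between those, with an average effect of TBI of -0.13 (-0.32 to 0.05). Scn8a in Pvalb interneuron-like nuclei stood at 379 and 507 CPM in control, 439 and 503 in BCAS, 485 and 453 in TBI and 496 and 331 in BCAS+TBI. The groups overlapped, and for Scn8a the average effect of TBI was -0.05 (-0.27 to 0.17).

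Scn3a in dentate granule neuron-like nuclei stood at 230.5 and 263 CPM in control, 241 and 257 in BCAS, 294 and 249 in TBI and 249 and 165 in BCAS+TBI. The BCAS+TBI library 2 was the lowest of the 8. BCAS+TBI against TBI gave -0.36 on the log2 scale (-0.73 to 0.00) and an adjusted p of 1 by edgeR. In upper-layer-like neurons Scn3a stood at 136 and 137 CPM in control, 142.5 and 136 in BCAS, 121 and 113 in TBI and 125 and 99.4 in BCAS+TBI. There the 4 libraries with TBI lay below the 4 without it. The average effect of TBI was -0.25 (SE 0.10, -0.46 to -0.04), the smallest p of that comparison for these genes, with an adjusted p of 1 by edgeR.

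Scn9a in Pvalb interneuron-like nuclei stood at 273 and 118 CPM in control, 323 and 79.8 in BCAS, 292 and 112 in TBI and 81.5 and 299 in BCAS+TBI. All groups overlapped, with the library of set 1 the higher in each. With the set as a term the average effect of TBI was -0.01 (-0.28 to 0.25) and that of BCAS -0.16 (-0.42 to 0.11), each with an adjusted p of 1 by edgeR.

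Scn9a in peptidergic neuron-like nuclei stood at 187 and 145 CPM in control, 218 and 181 in BCAS, 148 and 185 in TBI and 191 and 232 in BCAS+TBI. BCAS+TBI lay above control in both libraries and overlapped BCAS. The average effect of BCAS gave 0.27 (SE 0.10, 0.07 to 0.47) with an adjusted p of 1 by edgeR, and BCAS+TBI against control gave 0.34 (0.06 to 0.63), also with an adjusted p of 1. In thalamic nuclei Scn9a stood at 200 and 91.8 CPM in TBI and 111 and 305 in BCAS+TBI. These groups overlapped, since each held a library of either set. With the set as a term the difference was 0.48 (0.17 to 0.79) with an adjusted p of 1 by edgeR.

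Scn2b in Sst interneuron-like nuclei stood at 68.9 and 76.2 CPM in control, 93.7 and 70.8 in BCAS, 58.7 and 61.7 in TBI and 66.3 and 65.8 in BCAS+TBI. The 4 libraries with TBI lay below the 4 without it, and the average effect of TBI was -0.28 (-0.57 to 0.00) with an adjusted p of 1 by edgeR. Scn3b in dentate granule neuron-like nuclei stood at 137 and 165 CPM in control, 144 and 117 in BCAS, 163 and 169 in TBI and 184 and 162 in BCAS+TBI. The groups with and without TBI overlapped only through control library 2. For Scn3b that difference was 0.28 (0.02 to 0.54), with an adjusted p of 1 by edgeR.

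Scn4b in Drd1-like nuclei stood at 73.4 and 124 CPM in control, 135 and 119 in BCAS, 153 and 69.4 in TBI and 131 and 120.0 in BCAS+TBI. The type fell short of 20 nuclei in 1 library and was not tested. In Drd2-like nuclei Scn4b stood at 118 and 64.6 CPM in control, 84.1 and 125 in BCAS, 137 and 41.2 in TBI and 49.7 and 77.9 in BCAS+TBI. Libraries of 1 group differed by as much as the groups did, and the average effect of TBI gave -0.48 (-1.09 to 0.13).

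**Figure D3:**
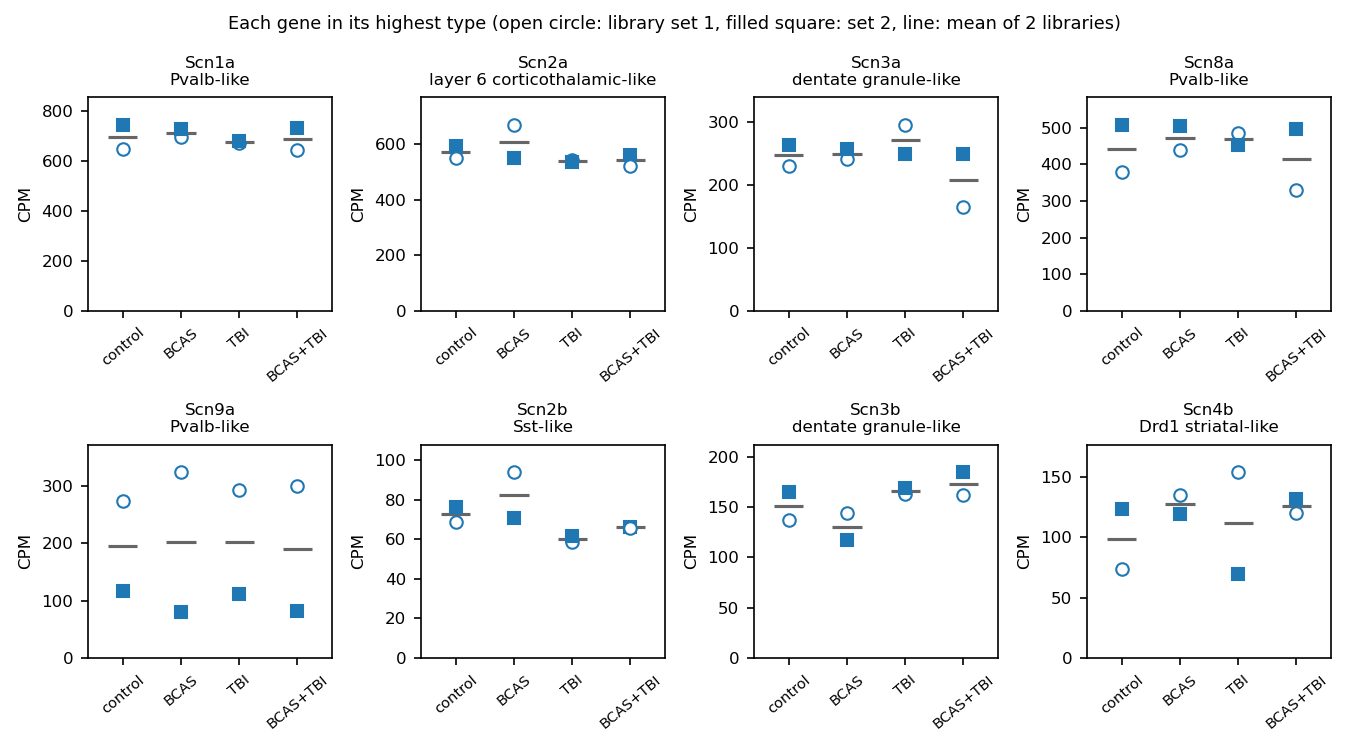
CPM of each gene in its highest type by surgery group. Open circles are libraries of set 1, filled squares libraries of set 2, and the line is the mean of the 2. Scn9a in Pvalb interneuron-like nuclei separates by library set (273 to 323 against 79.8 to 118 CPM), while Scn1a lies between 643.6 and 742 CPM in every group.

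**Figure D4:**
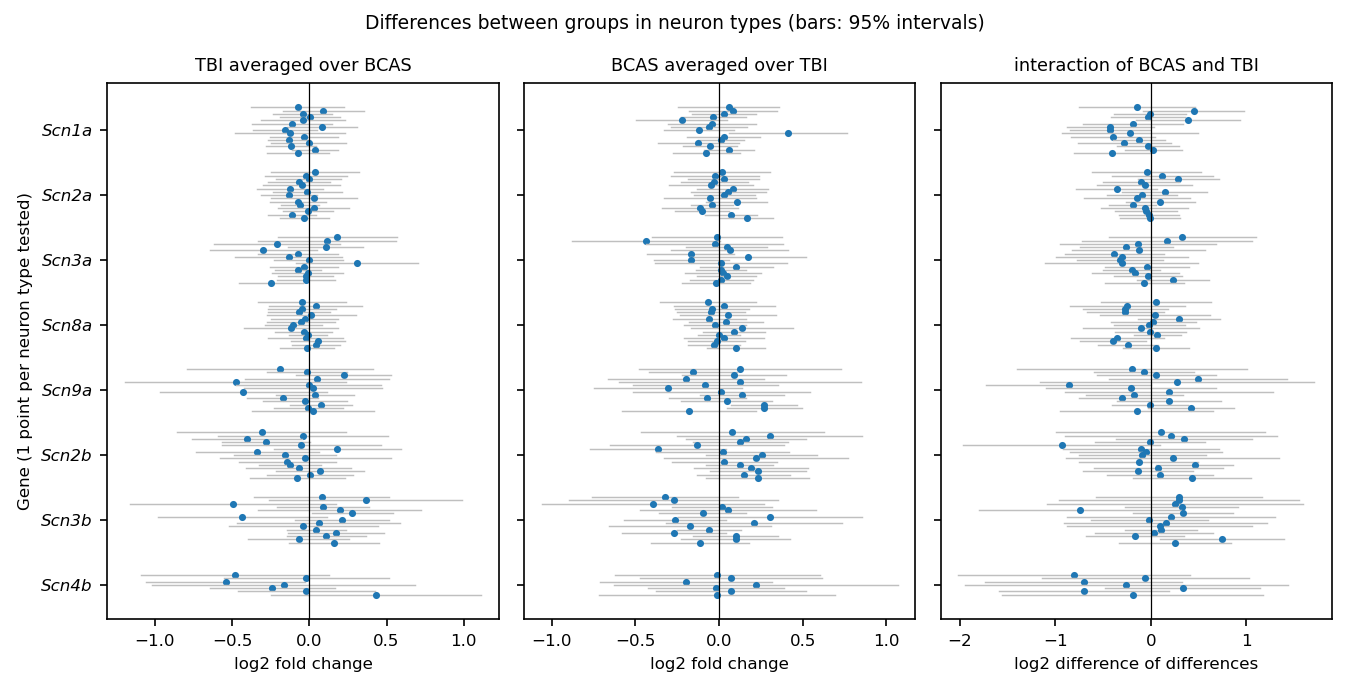
Log2 differences with 95% intervals for the average effect of TBI, the average effect of BCAS and their interaction, by gene, in the neuron types tested. Estimates range from -0.54 to 0.43 for TBI, from -0.44 to 0.41 for BCAS and from -0.93 to 0.75 for the interaction, and none was called.

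In 4 of the comparisons the smallest p-value was for Scn2a in nuclei other than neurons, where its level is low. In endothelial-like nuclei Scn2a stood at 51.4 and 105 CPM in control, 178 and 181 in BCAS, 135 and 230.3 in TBI and 166 and 147 in BCAS+TBI, from 5 to 38 UMIs a library. Control was below the other groups. TBI against control gave 1.23 (SE 0.42, 0.39 to 2.07) with an adjusted p of 0.989 by edgeR. The summed neuron list there was 382 to 607 CPM in control and 438 to 558 in TBI.

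In oligodendrocyte-like nuclei Scn2a stood at 82.9 and 64.9 CPM in control, 108 and 146 in BCAS, 84.2 and 162 in TBI and 71.0 and 84.7 in BCAS+TBI. BCAS lay above control and BCAS+TBI. BCAS against control gave 0.82 (0.24 to 1.40) with an adjusted p of 1 by edgeR. The interaction gave -1.42 (SE 0.41, -2.27 to -0.58) with an adjusted p of 0.563 by edgeR. The neuron list moved with it in part, at 172 to 268 CPM in control, 283 to 340 in BCAS, 242 to 383 in TBI and 181 to 374 in BCAS+TBI. Its part in the Scn2a values was not tested.

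In astrocyte-like nuclei Scn2a stood at 67.8 and 70.4 CPM in control, 79.8 and 120.4 in BCAS, 43.9 and 144 in TBI and 68.7 and 42.1 in BCAS+TBI. BCAS+TBI lay below BCAS. The TBI libraries lay apart, at the highest value of the 8 and just above the lowest, that of BCAS+TBI library 2. BCAS+TBI against BCAS gave -0.85 (SE 0.27, -1.39 to -0.31) with an adjusted p of 0.748 by edgeR. The interaction was -1.15 (-1.92 to -0.39) with an adjusted p of 0.805. Without TBI library 1 it was -1.69 with an adjusted p of 0.0438, the 1 pair called in any of the alternatives to these 8 comparisons. That fit has 1 TBI library, the highest of the 8, which is assumed to vary like the other groups. The neuron list stood at 205 and 162 CPM in control, 259 and 248 in BCAS, 152 and 268 in TBI and 177 and 306 in BCAS+TBI. In the TBI libraries it was low and high as Scn2a was. In control, BCAS and BCAS+TBI it was higher in the library where Scn2a was lower, with 306 CPM beside 42.1 of Scn2a in BCAS+TBI. Its part in these values was not tested.

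The 2 library sets differed far more than the groups, as 32.4% of all pairs were called between them by edgeR. Of the 133 pairs of these genes 38 were called (28.6%), a share near that background. Of them 26 (19.5%) were higher in set 2, where 14.5% of all pairs were, and 12 (9.02%) were lower, where 17.9% of all pairs were. The called pairs of a gene all had 1 direction. Scn8a was higher in set 2 in 11 of 18 types (median log2 difference 0.38), Scn2a in 6 of 21 (0.20), Scn1a in 5 of 21 (0.25) and Scn3a in 4 of 18 (0.20). Scn2b was lower in 1 of 19 types (peptidergic neuron-like, -0.41), and Scn3b and Scn4b had no call in 15 and 7 types. In the precursors Scn3a was higher in set 2 by 0.51 on the log2 scale (0.17 to 0.85, adjusted p 0.0174 by edgeR).

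Scn9a went the other way: it was lower in set 2 in 11 of 14 types, with a median of -1.05. In mid-layer-like neurons Scn9a stood at 166, 187, 150 and 171 CPM in the control, BCAS, TBI and BCAS+TBI libraries of set 1, and at 33.7, 41.8, 45.8 and 42.4 CPM in those of set 2. The sets did not overlap, and the log2 difference was -1.93 (-2.18 to -1.67, adjusted p 1.15e-09 by edgeR). In Pvalb interneuron-like nuclei the set 1 libraries held 273, 323, 292 and 299 CPM of Scn9a and the set 2 libraries 118, 79.8, 112 and 81.5. The difference there was -1.52 (-1.79 to -1.26, adjusted p 1.98e-09 by edgeR). The 3 types without a call for Scn9a were peptidergic neuron-like (-0.02), Drd2-like (-0.29) and dentate granule neuron-like (0.19). Peptidergic nuclei held 148 to 232 CPM in set 1 and 145 to 191 in set 2, so the order of types for Scn9a differed by set. Within set 1 Pvalb interneuron-like nuclei were highest in every library except BCAS+TBI 2, where thalamic nuclei held 305 CPM. In set 2 peptidergic nuclei were highest in every library.

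**Figure D5:**
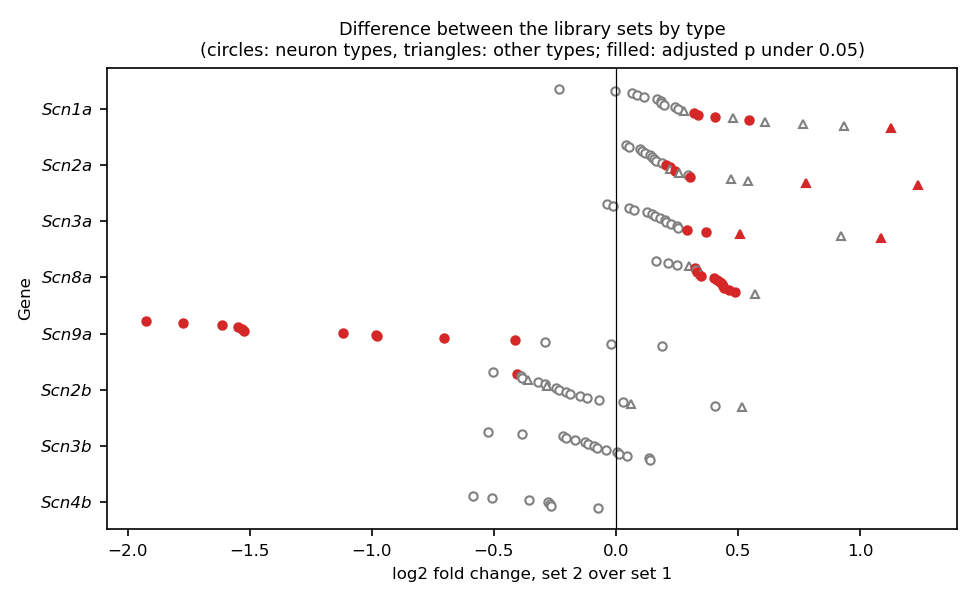
Log2 difference of set 2 against set 1 by gene, 1 mark per type. Filled marks were called at an adjusted p under 0.05 by edgeR, and triangles are nuclei other than neurons. Scn9a lies at -1.93 to 0.19 with 11 of 14 types called lower, and Scn8a at 0.17 to 0.57 with 11 of 18 called higher.

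Genes that overlap Scn1a and Scn9a on the opposite strand were read beside them, because whether the counting used strand is not given in the sources used here. Gm13629, which overlaps Scn9a, had 17281 UMIs against 12950 for Scn9a. It was highest in Pvalb interneuron-like nuclei too (335 CPM), yet it was lower in set 2 in 1 of 14 types, with a median of -0.10. Gm13630, which lies within Scn1a, had 2034 UMIs and was lower in set 2 in 9 of 10 types (median -1.02), while Scn1a was called only upwards. Gm13595, within Scn3a, had 184 UMIs and was lower in its 1 tested type (-1.28). The overlaps of the beta genes were small, 212 UMIs for Gm10684 over Scn2b and 67 for Gm47266 over Scn3b. In the group comparisons edgeR called 0 of 200 values of Gm13595, Gm13629 and Gm13630, with 11 at an unadjusted p under 0.05, and DESeq2 called 0, with 3. Over all 196164 pairs, 7205 to 10188 a comparison were at that level by edgeR.

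The other genes of the pathway were read as fixed lists and gave 0 edgeR calls in the 8 group comparisons, where 115 of 2080 values had an unadjusted p under 0.05. Over all 196164 pairs, 7205 to 10188 a comparison had such a p by edgeR. DESeq2 also called 0, with 16 at that level. Each comparison covered 260 pairs: 29 from the other sodium channel subunits, 72 from the fibroblast growth factor homologous factors (intracellular proteins that bind the alpha subunit's tail), 137 from genes of the axon initial segment and node, and 22 from Nedd4l, a ubiquitin ligase of membrane channels. Between the library sets, Fgf12 was higher in set 2 in 21 of 23 types (0.52) and Fgf14 in 22 of 23 (0.51). The potassium channel gene Kcnq3 was higher in 17 of 20 (0.59), and Ank3, which encodes the anchoring ankyrin G, in 11 of 22 (0.27). Fgf12 and Fgf14 were thus higher in set 2, as Scn8a was.

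Likeness was described by Pearson's r of log2(CPM + 10) over the 26 types, among 13910 genes with at least 20 CPM in some type. The points share libraries and depth, and a high r partly reflects the step between neurons and other cells. Scn1a was most like Gm13630 (0.944), Scrt1 (0.933) and Clstn3 (0.931). Scn2a was most like Ptprn (0.981), Grin1 (0.970) and Myt1l (0.969). Scn3a was most like Nexmif (0.921), Pdzd4 (0.914) and Tenm1 (0.912). Scn8a was most like Unc79 (0.954) and Stxbp5l (0.952), and Scn9a was most like Gm13629 (0.914), Mirg (0.906) and B830012L14Rik (0.901). Among the beta subunits, Scn2b was most like Syngr3 (0.903), Scn3b like Cnih2 (0.869) and Scn4b like Ptprv (0.876). Between these 8 genes r ran from 0.14 (Scn9a and Scn4b) to 0.90 (Scn2a and Scn8a). Scn4b stood apart, with r of at most 0.30 to any of the others.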

How the data were processed

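Single-nucleus 3' libraries (10x Genomics Chromium) came from 8 samples in 4 groups of 2. The deposited values are UMI counts per gene and barcode, and the file headers name Cell Ranger 7.0.0. The submitters' processing notes name GRCm38 (mm10) and Seurat. Settings for introns, strand and empty droplets are not given in the sources used here.

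A barcode needed 500 UMIs, 300 detected genes and no more than 5% of its UMIs from mitochondrial genes (48468 of 53390 passed), and the 6% with the highest Scrublet score in each library were removed as doublets. Clustering in scanpy 1.11.5 left out 27 member and pathway genes and used 3000 variable genes centred and scaled within each library, 30 components, 15 neighbours and Leiden resolution 2. Inhibitory nuclei were clustered again at 0.3. The centring, that resolution and the limits for naming were chosen after seeing the data. Named nuclei above 3 times the median UMIs of their type and library were left out (510, 1.38%). A type was named from at least 3 markers.

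Counts were summed per type and library and tested with edgeR 4.0.16 (TMM, minimum count 10, group plus library set) in the 23 types with at least 20 nuclei in every library, with DESeq2 1.42.0 as an alternative. The tests were checked on simulated data of upper-layer-, Pvalb interneuron- and oligodendrocyte precursor-like nuclei, for the average effect of TBI. Simulated log2 changes of -1 were recovered in 42% to 58% of genes and changes of 1 in 56% to 80%. For changes of -2 or 2 it was 90% to 100%. There the adjustment covered the genes of 1 type, and in the real tests all 196164 pairs. Leaving out each library, other filters, normalizations and clusterings were tried. The 8 genes were described in every type, with the pair of smallest p named where none was called, the pathway lists by counts and, for likeness, the 3 genes of highest r (for the beta subunits 1 is printed). Some results of the lists and of likeness are not reported here. The genes and the lists were chosen with earlier results of these data known. Depth limits precision: the median nucleus held from 877 UMIs (pericyte and smooth muscle-like) to 9488 (layer 5-like).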

Additional observations from a re-analysis of the deposited data

How the results depend on the processing

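No call of these genes in the 8 group comparisons depended on scaling, filter, normalization, tool or clustering: the count stayed 0 with each of those settings, 2 of which (scaling over all libraries together and resolution 1 for inhibitory nuclei) were chosen after seeing the data. Leaving out 1 library gave 0 to 1, the 1 being the interaction without TBI library 1 (Scn2a, astrocyte-like); the cause was not tested. Calls over all pairs moved more: without a filter on low counts they rose to between 284 and 390 a comparison, without the library set term they were 0, by DESeq2 they were 3 to 9, and leaving out 1 library gave 20 to 170. Between the library sets, 28 (DESeq2) to 51 (no filter) pairs of these genes were called, 30 to 36 without 1 library, and 32692 to 66686 of all pairs. The 8 named pairs kept their direction in 156 alternative values. They were picked for the smallest p-value of each comparison and the alternatives reuse the same libraries, so this is no separate evidence for the directions.

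Replicate numbers do not pair the samples: in upper-layer-like neurons the differences between replicates correlated at 0.69 to 0.76 among control, BCAS and TBI but at -0.77 to -0.68 with BCAS+TBI. With a replicate block in place of the library set, 0 pairs of these genes were called in each of the 8 comparisons, and 0 of all pairs.

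Of 1224 levels recomputed, 54 moved by more than 1 SD, 28 in neuron types, of which 7 by over 1.5 times. Among these were Scn9a in Drd2-like nuclei (46.9 to 26.1 CPM with a finer split of inhibitory nuclei) and Scn4b in peptidergic neuron-like nuclei (1.81 to 5.49) and upper-layer-like nuclei (6.84 to 4.10) without centring. Of 26 in other types, 24 moved by over 1.5 times, all upwards. Keeping the high-UMI nuclei gave 18 of the 26. Among these were Scn1a in ependymal-like nuclei (30.4 to 120 CPM) and Scn8a in fibroblast-like nuclei (46.3 to 129). Those levels thus rest on leaving such nuclei out. Depth limits the rarer genes most: Scn4b rested on 1907 UMIs.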
